A study of Mus musculus with 3 samples.

Results

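The genes of 10 receptor tyrosine kinases other than the PDGF receptors were followed through the open chromatin of 3 single-nucleus libraries of a mouse glioma series. The members were Egfr, Erbb2, Erbb3, Erbb4, Fgfr1, Fgfr2, Fgfr3, Met, Ntrk2 and Igf1r, which is 10 of 21883 protein-coding genes. A peak belonged to a gene if it overlapped the gene body or the 10 kb on either side on mm10, and peaks at the gene's ends were kept apart from the others. This gave 168 of 127094 peaks in PDGFB-NLS, 73 of 57616 in PDGFB-WT and 128 of 107627 in Control. The series concerns gliomas raised by in utero electroporation of piggyBac transposons into the embryonic mouse brain. One library overexpressed PDGFB-NLS, one overexpressed PDGFB-WT and one was labelled Control. PDGFB is a growth factor that acts through PDGFRA and PDGFRB, and NLS is given here as the labels spell it. All 3 libraries, Control included, carry glioma as their tissue, while the Control data were deposited under the word Normal. Whether Control is a tumor or normal brain is therefore not settled here, and every ratio to Control carries that limit. The labels give neither strain, age nor the number of animals, and name no IDH allele for any library, although the series title speaks of mutant IDH. The assay was ATAC-seq of single nuclei, in which the transposase Tn5 cuts open DNA.

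Receptor tyrosine kinases are membrane proteins that dimerise when a ligand binds, phosphorylate each other's tails and recruit adaptors that start the RAS-ERK and PI3K pathways. Egfr and its relatives Erbb3 and Erbb4 bind EGF-like ligands or neuregulins, and their relative Erbb2 has no known ligand of its own. Fgfr1 to Fgfr3 bind fibroblast growth factors, Met binds hepatocyte growth factor, Ntrk2 (TrkB) binds BDNF and Igf1r binds insulin-like growth factors. In the brain Ntrk2, Egfr and Fgfr3 are known in astrocytes, and Erbb3 and Fgfr2 in the oligodendrocyte lineage. Several of these genes are altered in human gliomas, EGFR the best known.

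The libraries differed widely in depth. After barcodes under 200 counts were left out, PDGFB-NLS held 10996 barcodes with a median of 2767.5 counts, PDGFB-WT 7441 with a median of 821, and Control 2226 with a median of 13054. The libraries held 31177621, 7008951 and 31588784 counts in peaks in that order, and they shared between 22 and 118 barcodes per pair. Levels are given as CPM, counts per 1000000 counts in the 47450 regions called in all 3 libraries. The levels by class of nuclei have another scale, given there. With 1 library per group no difference has a replicate check. Ratios are log2, relative to the median of all genes in the same comparison, with exact 95% intervals that cover counting error only, and "past 1.5-fold" stands for 0.58 or more on that scale.

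The stretch just upstream of a start site shows how unlike these genes are in base composition, and it lies under or beside the promoter peaks described below. Sequences came from RefSeq (GRCm38.p6, the assembly of mm10), which gave windows of 250 bases before a start site for 8 of the 10 genes, 9 windows in all because Fgfr3 had more than one start. Of these, 8 overlapped a region called in all 3 libraries. Those shown are the starts of Ntrk2 and Egfr, whose loci differed most between the libraries, and the starts poorest and richest in CpG, Fgfr2 and Igf1r. They run 5′ to 3′ on the gene's strand up to the base before the annotated gene, so the Ntrk2 window is cut to 153 bases, and the Met window, which lies inside the annotated gene, is not shown. Capitals mark each CG dinucleotide.
Ntrk2: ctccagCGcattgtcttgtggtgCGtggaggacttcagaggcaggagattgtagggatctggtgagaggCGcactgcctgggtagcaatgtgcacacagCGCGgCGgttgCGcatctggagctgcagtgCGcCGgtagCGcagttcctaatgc
Egfr: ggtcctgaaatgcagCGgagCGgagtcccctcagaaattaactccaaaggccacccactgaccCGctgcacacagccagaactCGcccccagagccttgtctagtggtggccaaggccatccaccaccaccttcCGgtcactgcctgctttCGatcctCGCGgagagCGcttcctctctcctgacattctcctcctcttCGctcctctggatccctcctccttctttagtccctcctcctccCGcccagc
Fgfr2: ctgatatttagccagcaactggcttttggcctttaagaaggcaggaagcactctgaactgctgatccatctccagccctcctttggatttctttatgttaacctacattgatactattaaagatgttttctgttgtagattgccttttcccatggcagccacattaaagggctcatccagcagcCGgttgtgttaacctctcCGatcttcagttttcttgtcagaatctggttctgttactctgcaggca
Igf1r: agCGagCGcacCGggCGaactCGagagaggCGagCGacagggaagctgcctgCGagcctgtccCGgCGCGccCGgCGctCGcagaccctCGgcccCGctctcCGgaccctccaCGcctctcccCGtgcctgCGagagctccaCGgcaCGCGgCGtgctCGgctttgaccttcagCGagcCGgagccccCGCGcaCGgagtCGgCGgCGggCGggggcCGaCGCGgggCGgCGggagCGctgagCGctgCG
These lie at chr13:58806319-58806471 (plus strand), chr11:16751953-16752202 (plus strand), chr7:130266809-130267058 (minus strand) and chr7:67952007-67952256 (plus strand). The full Igf1r window held 42 CG dinucleotides and the Fgfr2 window 2, against a median of 6 over 32851 RefSeq windows of the same length. Ntrk2 held 19 in its full window, Egfr 11 and Met 24. The GC box GGGCGG, counted on both strands with overlaps allowed, had 3 matches before Met, 2 before Igf1r and 1 before Egfr. The Fgfr3 windows held 3 and 2, and those of Ntrk2, Fgfr2, Erbb2 and Erbb4 none, so the motif was in 5 of the 9 windows. It was present in 32.7% of all windows. The AP-1 motif TGANTCA had 1 match, before Met, and was present in 6.75% of all windows.

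The loci of the 10 genes held 193 merged regions, and 59 of them had a peak in each library. Of 20 regions within 1000 bp of a gene end, 12 (60%) were called in all 3, against 65.8% of such regions of all genes. Of 172 other regions, 47 (27.3%) were called in all 3, against 27.2% of the other regions of all genes. Regions called in PDGFB-NLS alone made up 30.8% of the members' other regions, those called in PDGFB-WT alone 4.65% and those called in Control alone 12.2%, against 23.15%, 2.93% and 11.1% of the other regions of all genes. PDGFB-WT, the shallowest library, had the fewest peaks at these loci, and regions called in all 3 libraries carry the comparisons. Such a region had to be called in PDGFB-WT, so weak regions were kept only where that library was high enough for a call. Common regions held 78.8% of the counts in PDGFB-NLS, 96.3% in PDGFB-WT and 81.6% in Control. The part of this selection in the ratios of PDGFB-WT was not tested. Igf1r (281 kb long) had 41 regions, Erbb4 (1077 kb) and Ntrk2 (327 kb) had 36 each, and Erbb2 (25.2 kb) had 5.

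Ntrk2 was the member past 1.5-fold higher in both PDGFB libraries than in Control at its start and at its other peaks alike. Its start-site region had 20.6 CPM in PDGFB-NLS (95% Poisson interval 18.4 to 23.5), 20.6 in PDGFB-WT (16.3 to 26.1) and 12.5 in Control (10.5 to 14.3). The other peaks summed to 165 CPM in PDGFB-NLS (157 to 172), 232 in PDGFB-WT (216 to 248) and 87.0 in Control (82.5 to 92.7). Control was thus the lowest library by both measures, and PDGFB-WT was the highest at the other peaks. At the start the log2 ratio was 0.74 for PDGFB-NLS against Control (0.49 to 1.07) and 0.87 for PDGFB-WT against Control (0.49 to 1.31). At the other peaks it was 0.89 (0.78 to 0.99) and 1.32 (1.18 to 1.44). These ratios share the Control library. PDGFB-NLS against PDGFB-WT gave -0.42 at the other peaks (-0.54 to -0.30), short of 1.5-fold. In whole libraries, more nuclei of one type and more open chromatin per nucleus cannot be told apart. Of 12 marker lists, those of 4 cell types had the same order of libraries as the other peaks of Ntrk2. The 12 astrocyte markers, all with common regions, summed to 722 CPM in PDGFB-NLS, 888 in PDGFB-WT and 642 in Control, and the 12 markers of oligodendrocyte precursors (OPCs), likewise, to 755, 882 and 621.5. The neural progenitor list (11 of 12 with common regions, Dcx without) summed to 824, 904 and 755 CPM, and the inhibitory neuron list (7 of 12, without Gad2, Dlx2, Dlx6, Lhx6 and Vip) to 139, 156 and 96.7. The remaining lists had another order. Among them the oligodendrocyte list summed to 701, 590 and 754 CPM and the microglia or macrophage list to 526, 507 and 588, with Control highest in both. Nuclei clustered as OPC-like held 15.9% of the counts in PDGFB-NLS, 30.7% in PDGFB-WT and 2.36% in Control. At the finer resolution 1.0 the OPC-like cluster of PDGFB-WT held 1784271 counts in place of 2153378, and 439 barcodes with 388177 counts formed an oligodendrocyte-like cluster. The part of these shares in the Ntrk2, Egfr and Erbb4 results was not tested.

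All 15 other Ntrk2 regions called in all 3 libraries lay above the all-gene median in PDGFB-NLS against Control, from 0.22 to 1.77, and 11 were past 1.5-fold. All 15 did so in PDGFB-WT against Control too, from 0.56 to 2.62, with 14 past 1.5-fold. The share of single regions of all genes past that limit was not counted. Of genes with their other peaks summed, 6.73% and 17.9% were past 1.5-fold higher in these comparisons. In PDGFB-NLS against PDGFB-WT 14 of the 15 were lower. The widest ratio to Control was at a region 193 kb into the gene (chr13:58999017-59000041), with 6.19 CPM in PDGFB-NLS, 11.7 in PDGFB-WT and 1.78 in Control. Of these 15, the region with the highest level in both PDGFB libraries lay past the 3′ end (chr13:59142903-59143851), with 20.3 CPM in PDGFB-NLS, 34.7 in PDGFB-WT and 9.77 in Control. The exception was a region 235 kb in (chr13:59040700-59041667), the one that was higher in PDGFB-NLS (13.7 CPM) than in PDGFB-WT (8.60 CPM), with 4.07 in Control. Genes within 2 Mb of Ntrk2 had median end ratios of 0.0015 for PDGFB-NLS against Control (17 genes) and -0.06 for PDGFB-WT against Control (14 genes).

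**Figure D1:**
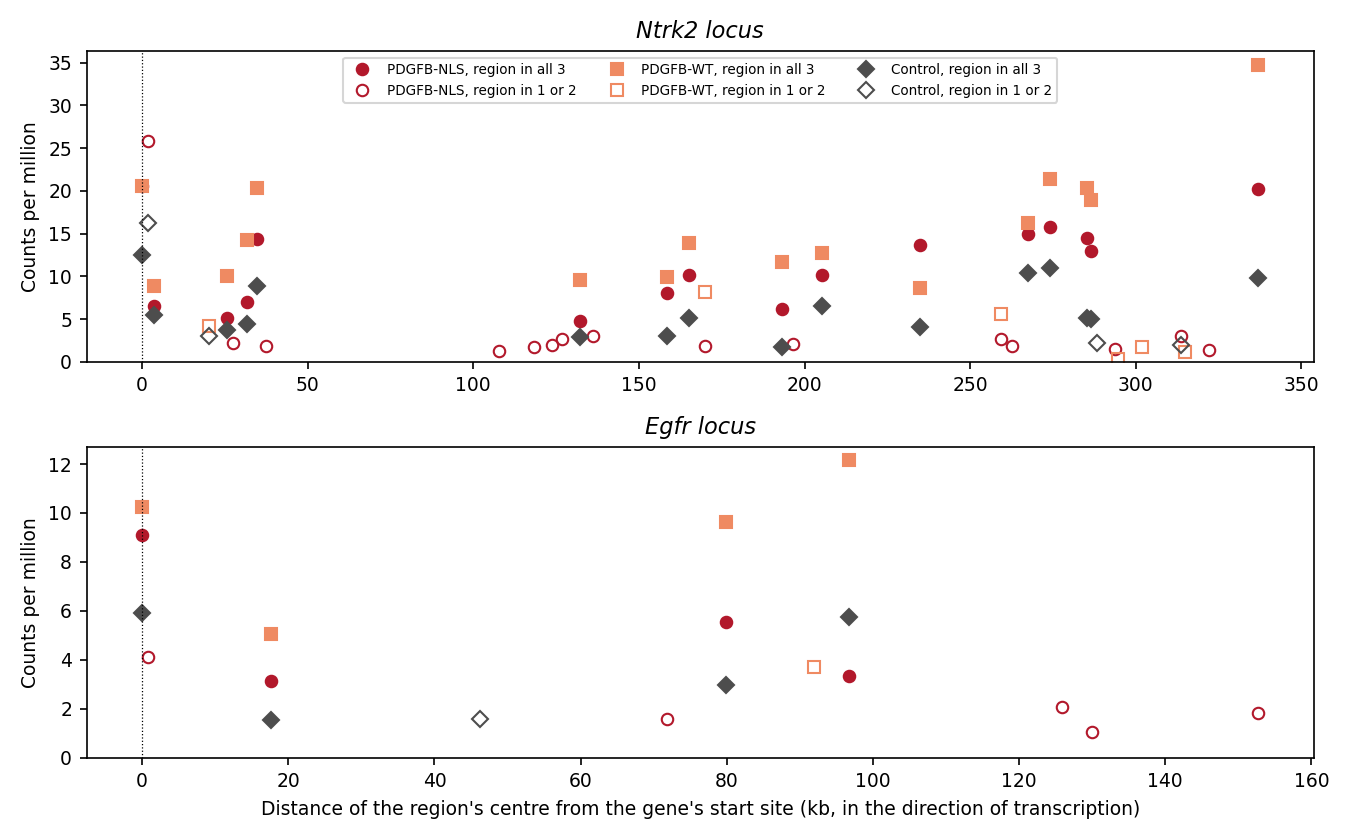
CPM of each called region of the Ntrk2 and Egfr loci against the distance of its centre from the start site in kb; filled symbols are regions called in all 3 libraries, open symbols those called in 1 or 2. Along Ntrk2 the filled Control symbols lie lowest at all 15 regions away from the start, and along Egfr the filled PDGFB-WT symbols lie highest at all 4.

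Egfr, the EGF receptor, was higher at its other peaks in PDGFB-WT than in either other library. Its other peaks had 12.01 CPM in PDGFB-NLS (10.2 to 14.0), 26.8 in PDGFB-WT (21.3 to 32.4) and 10.3 in Control (8.81 to 12.4), so PDGFB-NLS and Control had overlapping intervals and PDGFB-WT stood above both. The log2 ratio was 1.29 for PDGFB-WT against Control (0.85 to 1.63), 0.20 for PDGFB-NLS against Control (-0.17 to 0.51) and -1.09 for PDGFB-NLS against PDGFB-WT (-1.45 to -0.68). The region 96.7 kb into the gene (chr11:16848366-16849427) separated the PDGFB libraries most, with 3.34 CPM in PDGFB-NLS, 12.2 in PDGFB-WT and 5.74 in Control. There PDGFB-NLS against Control was -0.81, while the regions 17.6 and 79.9 kb in gave 0.99 and 0.86, so the sum for PDGFB-NLS joins opposite directions. At the start site Egfr had 9.12 CPM in PDGFB-NLS (7.72 to 11.2), 10.2 in PDGFB-WT (7.17 to 14.2) and 5.90 in Control (4.71 to 7.42). PDGFB-NLS against Control was 0.64 there (0.24 to 1.09), but 0.56 when each peak was read as open or not in each barcode, 0.52 without the 5% deepest barcodes and 1.18 with each library's own peaks, which add a PDGFB-NLS peak beside the start. The PDGFB-WT start rested on 69 counts, under the minimum of 100 set for a ratio.

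Erbb4, a neuregulin receptor, had 40.3 CPM at its other peaks in PDGFB-NLS (38.0 to 45.2), 47.7 in PDGFB-WT (41.1 to 55.9) and 22.9 in Control (21.3 to 26.7). Both PDGFB libraries lay above Control without overlap of the intervals. Of its 7 regions, 5 were past 1.5-fold higher in PDGFB-NLS against Control and 6 in PDGFB-WT against Control. The share of single regions of all genes was not counted. The log2 ratio was 0.79 for PDGFB-NLS against Control (0.57 to 0.97) and 0.97 for PDGFB-WT against Control (0.64 to 1.19). Over each library's own peaks, which included regions called in only 1 or 2 libraries, these ratios were 0.32 and 0.17, so the calls rest on the regions shared by all 3. The Erbb4 start site was called in PDGFB-NLS (10.3 CPM) and Control (9.46 CPM) but not in PDGFB-WT, where its count is unknown.

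Erbb2, the ErbB receptor with no known ligand of its own, and Erbb3, whose kinase is nearly inactive, both share an end region with a neighbouring gene. The region at the 3′ end of Erbb2 is also an end of Mien1 and held 54.4 CPM in PDGFB-NLS, 35.0 in PDGFB-WT and 57.4 in Control. The start of Erbb2 had 15.8 CPM in PDGFB-NLS, 13.9 in PDGFB-WT and 13.7 in Control, and its PDGFB-NLS against Control ratio was 0.22 with an interval that includes 0 (-0.03 to 0.56). One end of Erbb3 is also an end of Pa2g4, with 119 CPM in PDGFB-NLS, 111 in PDGFB-WT and 126 in Control. Away from Pa2g4, the Erbb3 end had 13.1 CPM in PDGFB-NLS, 10.4 in PDGFB-WT and 27.3 in Control, so Control was the highest. That is a log2 ratio of -1.05 for PDGFB-NLS against Control (-1.26 to -0.75). The common peaks at the Erbb3 ends, Pa2g4 region included, covered 1449 bp in PDGFB-NLS, 1522 in PDGFB-WT and 2113 in Control. The part of this peak length in the ratio of -1.05 was not tested. Of all genes, 0.94% were past 1.5-fold lower at ends away from other genes in that comparison. With the Pa2g4 region included the Erbb3 ratio was -0.20 (-0.30 to -0.12), and per kb of peak length its direction reversed, to 0.31, as it did for PDGFB-WT against Control (0.26 in place of -0.18). Away from Pa2g4, the PDGFB-WT level of 10.4 CPM rested on 70 counts.

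The fibroblast growth factor receptors differed among themselves. Fgfr1 had 39.8 CPM at its other peaks in PDGFB-NLS (38.0 to 45.1), 49.9 in PDGFB-WT (42.4 to 57.4) and 27.0 in Control (24.1 to 29.8), a log2 ratio of 0.53 for PDGFB-NLS against Control (0.40 to 0.80) and 0.79 for PDGFB-WT against Control (0.52 to 1.06). The PDGFB-WT ratio was 0.41 with each library's own peaks and 0.57 with a flank of 2 kb, both short of 1.5-fold. Its ends had 35.5, 38.5 and 30.7 CPM in the same order, short of 1.5-fold. Fgfr2 had 47.2 CPM at its other peaks in PDGFB-NLS (44.1 to 51.8), 55.1 in PDGFB-WT (47.9 to 63.8) and 58.3 in Control (55.5 to 63.9), and the intervals of PDGFB-NLS and Control do not overlap. Its PDGFB-NLS against Control ratio was -0.33 (-0.50 to -0.19), and a region 22.7 kb from its start (chr7:130243611-130244518) differed more, with 6.64 CPM in PDGFB-NLS, 7.71 in PDGFB-WT and 15.7 in Control. The Fgfr2 start had 17.8 CPM in PDGFB-NLS, 17.5 in PDGFB-WT and 17.0 in Control, with overlapping intervals. Fgfr3 had 27.1 CPM at its start in PDGFB-NLS, 22.8 in PDGFB-WT and 26.1 in Control, with overlapping intervals. Its single other region had 18.5, 16.4 and 12.2 CPM, a log2 ratio of 0.57 for PDGFB-NLS against Control (0.29 to 0.87), just under 1.5-fold.

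Met, the hepatocyte growth factor receptor, had 14.1 CPM at its start in PDGFB-NLS (12.6 to 16.9), 7.11 in PDGFB-WT (4.83 to 10.8) and 8.73 in Control (7.29 to 10.6). PDGFB-NLS was the highest, with a log2 ratio to Control of 0.71 (0.41 to 1.09), and the PDGFB-WT value rested on 48 counts. That ratio was 0.53 without the 5% deepest barcodes and 0.55 with peaks read as open or not, both short of 1.5-fold. The other Met peaks had 16.9 CPM in PDGFB-NLS, 23.3 in PDGFB-WT and 15.5 in Control, of which a region 85.6 kb in (chr6:17548512-17549464) gave 1.79, 9.78 and 2.33 CPM. Igf1r, the receptor of insulin-like growth factors, had 182 CPM at its other peaks in PDGFB-NLS (176 to 191), 159 in PDGFB-WT (150 to 177) and 164 in Control (158 to 172). Its 8 common other regions lay between 0.00 and 0.45 for PDGFB-NLS against Control. Its start had 61.6 CPM in PDGFB-NLS, 60.9 in PDGFB-WT and 76.8 in Control, a log2 ratio of -0.30 for PDGFB-NLS against Control (-0.36 to -0.09). In PDGFB-NLS the peak was split, and with each library's own peaks the ratio was 0.26, so its direction depends on where the peak was cut.

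**Figure D2:**
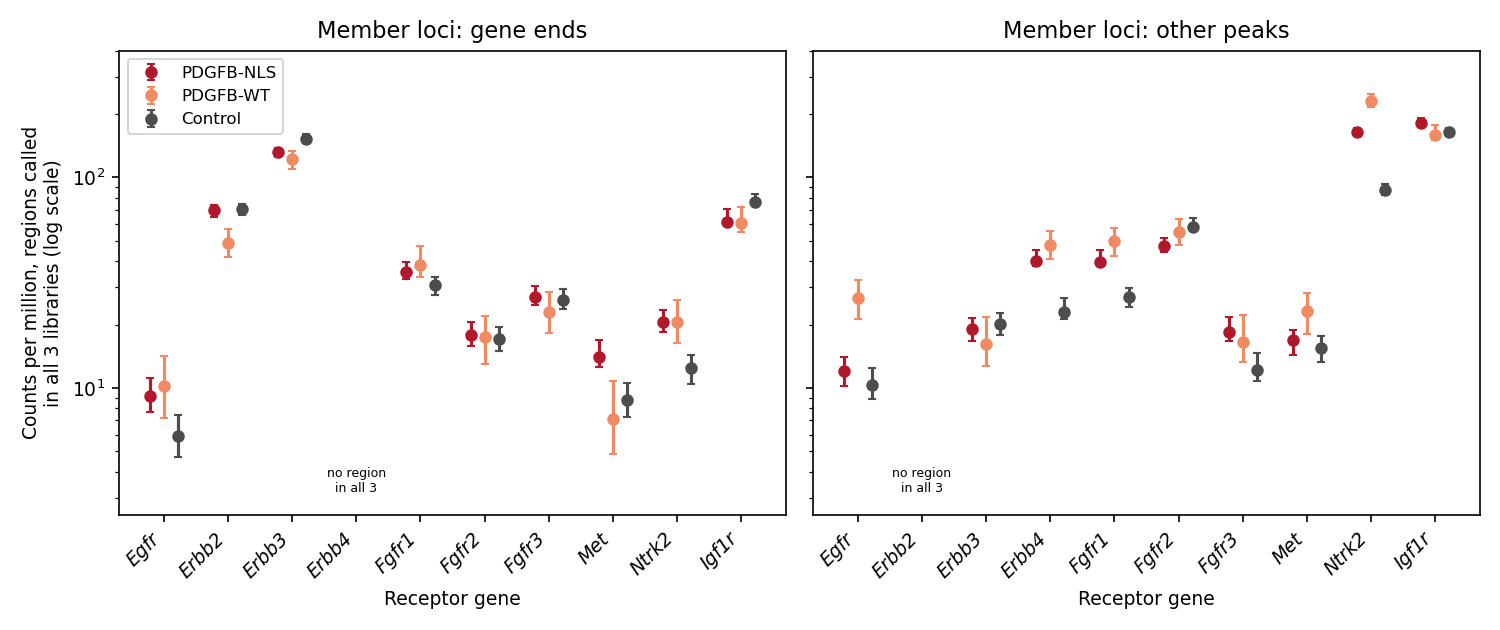
CPM on a log axis for each receptor gene in PDGFB-NLS, PDGFB-WT and Control, at gene ends (left) and other peaks (right), over regions called in all 3 libraries; bars are 95% Poisson intervals computed on fragments, which need not be centred on the count. Ntrk2, Erbb4 and Fgfr1 have the Control point lowest at the other peaks, and the ends of Fgfr2 and Fgfr3 have overlapping bars.

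Counted over the members, 3 of the 9 with a measured end were past 1.5-fold higher in PDGFB-NLS against Control (Egfr, Met and Ntrk2), where 4.26% of all 12546 genes were. At the other peaks 2 of 9 were (Erbb4 and Ntrk2), against 6.73% of 9982 genes. In PDGFB-WT against Control 1 of 7 ends was higher (Ntrk2), against 5.87% of 10853 genes, and 4 of 9 members were higher at the other peaks (Egfr, Erbb4, Fgfr1 and Ntrk2), against 17.9% of 6938 genes. In PDGFB-NLS against PDGFB-WT no end of 7 was past 1.5-fold in either direction, where 1.35% of genes were higher and 2.7% lower, and 1 of 9 members was lower at the other peaks (Egfr), against 8.83% of 6952 genes. No member was past 1.5-fold lower against Control. Of all genes, 0.765% were lower at the ends and 2.64% at the other peaks in PDGFB-NLS against Control, and 1.73% and 6.54% in PDGFB-WT against Control. No member was higher at the other peaks in PDGFB-NLS against PDGFB-WT, where 3.22% of genes were. At ends away from other genes, 3 of 9 members were higher (5.32% of genes) and 1 lower, Erbb3 (0.94% of genes), in PDGFB-NLS against Control. The common peaks at the Erbb3 ends were longest in Control, as given above. In PDGFB-WT against Control 1 of 5 was higher, Ntrk2 (7.22% of genes higher, 2.0% lower). None of 5 was past 1.5-fold in PDGFB-NLS against PDGFB-WT (1.51% of genes higher, 3.36% lower). The members' median at the other peaks was 0.20 for PDGFB-NLS against Control, with the quartiles of all genes at -0.18 and 0.22, and 0.50 for PDGFB-WT against Control, with the quartiles at -0.27 and 0.41.

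**Figure D3:**
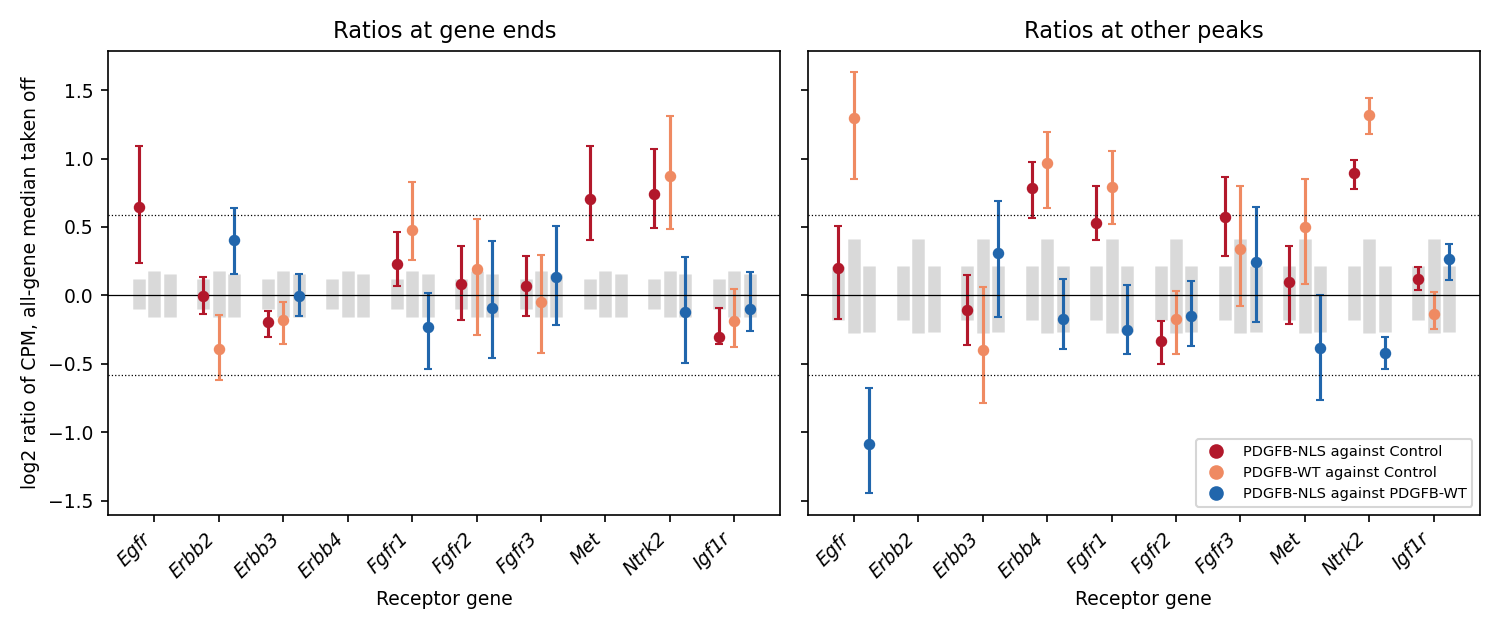
Log2 ratio of CPM for each member at gene ends (left) and other peaks (right) with exact 95% counting intervals, for the 3 comparisons; gray bars span the quartiles of all genes and dotted lines mark 1.5-fold. Ntrk2 lies above the upper line in both comparisons with Control in both panels, and Egfr at the other peaks does so in PDGFB-WT against Control, with 1.29.

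Nuclei were clustered in each library alone, without the members' peaks, and clusters were named from marker lists of brain cell types. PDGFB-NLS gave 7 clusters, all named, PDGFB-WT gave 5, of which 2 were named, and Control gave 10, of which 9 were named. Cluster 3 of PDGFB-WT was led by astrocyte markers but stayed unnamed, since Fezf2, on the excitatory neuron list, was the only listed marker among its top 10 genes. Fezf2 was also among the top 10 of the astrocyte-like cluster of Control. In cluster 5 of PDGFB-WT astrocyte markers came first too, but at a median log2 fold of 0.80. That is under the 1.0 required, so cluster 5 is not among the clusters called astrocyte-led below. Astrocyte-like nuclei held 19.97% of the counts in PDGFB-NLS, cluster 3 held 22.9% in PDGFB-WT, and astrocyte-like nuclei held 17.1% in Control. Oligodendrocyte-like nuclei held 21.1% in PDGFB-NLS and 25.5% in Control and had no cluster of their own in PDGFB-WT at the main resolution of 0.6. Such a cluster appeared there at resolution 1.0, with 439 barcodes, and among barcodes of at least 1000 counts, with 137. Levels by class below use each library's own peaks.

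Ntrk2 and Fgfr3 were most open in the astrocyte-led clusters of every library, and Egfr and Fgfr1 in those of 2 of the 3. Ntrk2 had 457 CPM in astrocyte-like nuclei of PDGFB-NLS, 519 in cluster 3 of PDGFB-WT and 380 in astrocyte-like nuclei of Control, and these nuclei held 48.2%, 45.2% and 64.8% of the Ntrk2 counts. Inhibitory neuron-like nuclei followed with 289 CPM in PDGFB-NLS and 288 in Control, and OPC-like nuclei had 258.5 CPM in PDGFB-NLS, 267 in PDGFB-WT and 283 in Control. Microglia or macrophage-like nuclei, which are not a neural class, had 29.2 CPM in PDGFB-NLS, 38.1 in PDGFB-WT and 7.19 in Control. Egfr had 70.0 CPM in astrocyte-like nuclei of PDGFB-NLS, 84.1 in cluster 3 and 62.0 in those of Control. In PDGFB-NLS the small inhibitory neuron-like cluster was higher still, at 74.2 CPM from 83 counts. Microglia or macrophage-like nuclei had 5.61 CPM of Egfr in PDGFB-NLS, 8.95 in PDGFB-WT and 1.47 in Control. Fgfr3 had 149.5, 71.0 and 133 CPM in the astrocyte-led clusters in the same order of libraries, the highest level of any class in each library. Fgfr1 had 171, 183 and 149 CPM there, and mural or fibroblast-like nuclei were the highest class of Control, at 163.

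Erbb3, Erbb4 and Fgfr2 were most open in oligodendrocyte-like nuclei where these were found. Fgfr2 had 210 CPM there in PDGFB-NLS and 341 in Control, and these nuclei held 50.8% and 75.8% of its counts. In PDGFB-WT, without such a cluster at the main resolution, Fgfr2 was highest in cluster 3, at 182 CPM. Erbb3 had 93.3 CPM in oligodendrocyte-like nuclei of PDGFB-NLS and 127 in those of Control, and its PDGFB-WT maximum was 53.4 in OPC-like nuclei. Erbb4 had 128 and 149 CPM in oligodendrocyte-like nuclei of PDGFB-NLS and Control, and in OPC-like nuclei 127 in PDGFB-NLS, 78.0 in PDGFB-WT and 75.01 in Control. Erbb2 was spread over classes, with its highest level in astrocyte-like (35.8 CPM) and endothelial-like (35.6 CPM) nuclei of PDGFB-NLS and in endothelial-like nuclei of Control (32.7 CPM).

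Met had no class in common as its highest. It had 54.9 CPM in OPC-like nuclei of PDGFB-NLS, 85.0 in the unnamed cluster 4 of PDGFB-WT and 35.1 in lymphocyte-like nuclei of Control, the last from 12 counts. Microglia or macrophage-like nuclei of Control had 32.7 CPM and held 52.9% of its Met counts, beside 36.55% of all its counts. In PDGFB-NLS they held 35.5% of the Met counts and 32.01% of all counts, and in PDGFB-WT 24.14% and 30.3%. Igf1r was open in every class of PDGFB-NLS between 263.5 and 439 CPM, with endothelial-like nuclei at the top, as they were in Control at 368 CPM. The shallow, unnamed clusters 4 and 5 of PDGFB-WT had medians of 391 and 676 counts per barcode.

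**Figure D4:**
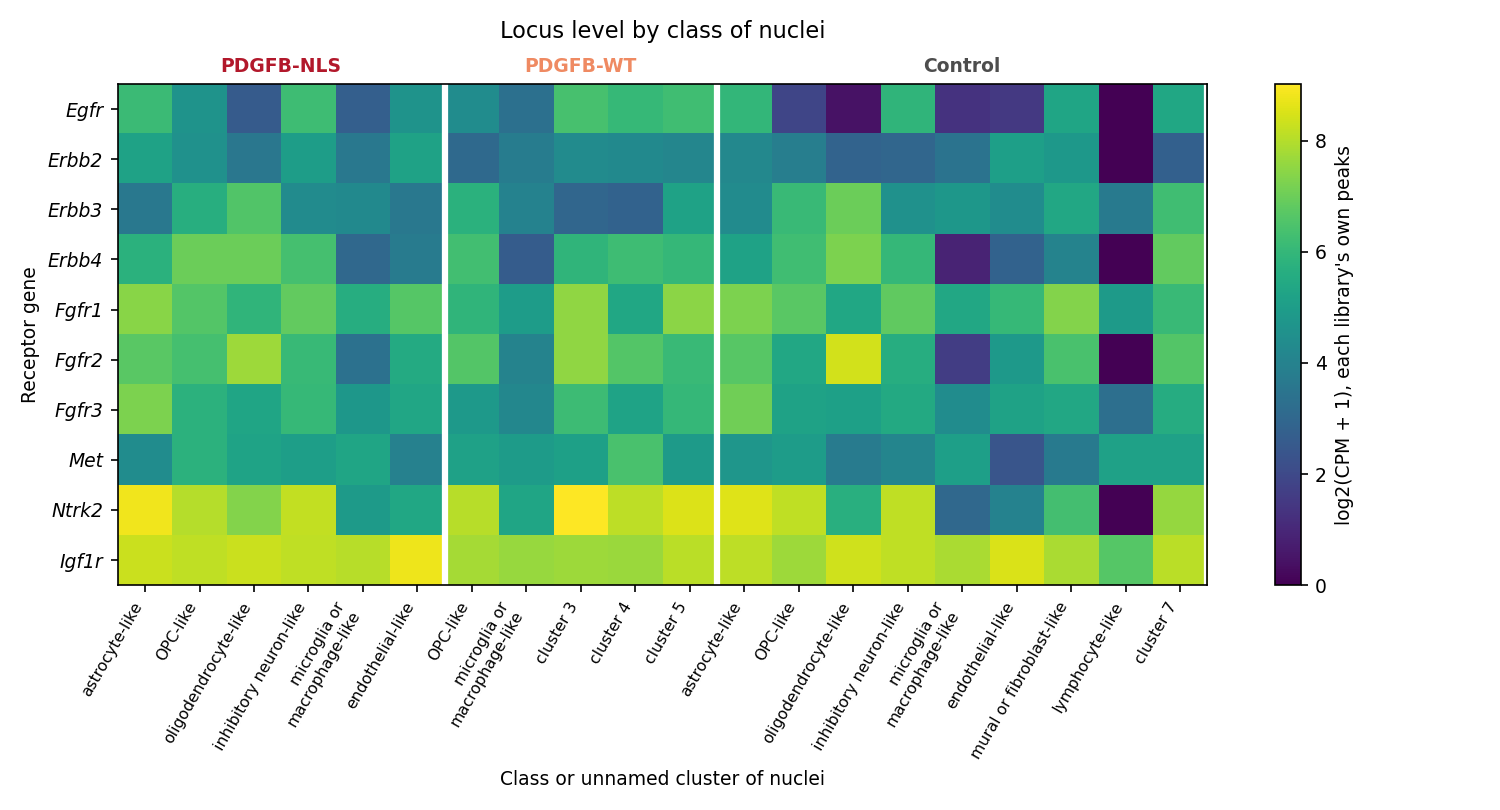
Heat map of log2(CPM + 1) of each receptor locus by class of nuclei (named classes, then unnamed clusters) in PDGFB-NLS, PDGFB-WT and Control. CPM is on all counts in each library's own peaks. Ntrk2 is brightest in the astrocyte-led clusters, Fgfr2 in oligodendrocyte-like nuclei, and Igf1r is bright throughout.

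Within classes the whole-library differences of Ntrk2 took different sizes, measured over regions called in all 3 libraries. CPM here is scaled on the counts of the class in those regions, and ends shared with another gene are left out. In the astrocyte-led clusters (3 and 6 of PDGFB-NLS, 3 of PDGFB-WT, 2 of Control) Ntrk2 had 445 CPM in PDGFB-NLS, 496 in PDGFB-WT and 356 in Control. This was a log2 ratio of 0.30 for PDGFB-NLS against Control (0.17 to 0.43) and 0.46 for PDGFB-WT against Control (0.27 to 0.62), both under 1.5-fold. Cluster 5 of PDGFB-WT, left out here, had 370 CPM of Ntrk2 over the library's own peaks, against 519 in cluster 3. In OPC-like nuclei Ntrk2 had 262 CPM in PDGFB-NLS, 258 in PDGFB-WT and 290.2 in Control, and both ratios to Control were -0.13 with intervals that include 0. In oligodendrocyte-like nuclei it had 145 CPM in PDGFB-NLS and 48.5 in Control, a ratio of 1.56 (1.34 to 1.88), in a comparison where 14.3% of genes were past 1.5-fold higher. In microglia or macrophage-like nuclei it had 29.0 CPM in PDGFB-NLS, 36.4 in PDGFB-WT and 6.77 in Control, and in endothelial-like nuclei 38.4 in PDGFB-NLS and 12.6 in Control. The classes in which Ntrk2 is low thus also differed, and the part of reads from other nuclei in these values was not tested.

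Egfr in the astrocyte-led clusters had 59.3 CPM in PDGFB-NLS, 86.8 in PDGFB-WT and 64.2 in Control, ratios of -0.14 for PDGFB-NLS against Control (-0.48 to 0.17) and 0.42 for PDGFB-WT against Control (-0.04 to 0.80), both with intervals that include 0. In OPC-like nuclei Egfr had 64 counts in PDGFB-NLS, 35 in PDGFB-WT and 2 in Control, levels of 16.8, 16.9 and 3.14 CPM that are too few in Control for a ratio. Erbb4 in OPC-like nuclei had 90.3 CPM in PDGFB-NLS, 70.6 in PDGFB-WT and 42.4 in Control (27 counts), a ratio of 1.11 for PDGFB-NLS against Control (0.33 to 2.01), where 6.22% of genes were past 1.5-fold higher. In the astrocyte-led clusters it had 37.1, 59.2 and 24.5 CPM, and PDGFB-WT against Control was 1.26 (0.66 to 1.80), where 12.1% of genes were higher.

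Fgfr2 had ratios of opposite sign in oligodendrocyte-like and OPC-like nuclei. In oligodendrocyte-like nuclei it had 124 CPM in PDGFB-NLS and 191 in Control, a ratio of -0.64 (-0.84 to -0.45), where 4.61% of genes were past 1.5-fold lower. In OPC-like nuclei it had 76.2 CPM in PDGFB-NLS, 91.4 in PDGFB-WT and 39.2 in Control (25 counts). The ratios to Control were 0.98 (0.14 to 1.90) and 1.26 (0.41 to 2.21), where 6.22% and 7.43% of genes were past 1.5-fold higher. The OPC-like cluster of Control held 57 barcodes. That of PDGFB-WT held 1954, and 1542 at resolution 1.0, where 439 barcodes formed an oligodendrocyte-like cluster. That of PDGFB-NLS was unnamed without the 5% deepest barcodes. The part of this make-up in the ratios was not tested, nor was the difference between oligodendrocyte-like and OPC-like nuclei. Erbb3 had 83.0 CPM in oligodendrocyte-like nuclei of PDGFB-NLS and 107 in those of Control, a ratio of -0.39 (-0.66 to -0.16). In microglia or macrophage-like nuclei it had 16.6 CPM in PDGFB-NLS, 15.3 in PDGFB-WT and 29.8 in Control, ratios to Control of -0.87 (-1.26 to -0.45) and -0.99 (-1.64 to -0.22). Fgfr1 and Met in oligodendrocyte-like nuclei were past 1.5-fold higher in PDGFB-NLS against Control, at 0.72 (0.38 to 1.16) and 0.73 (0.24 to 1.35), where 14.3% of genes were. The median log2 fold of the oligodendrocyte markers in oligodendrocyte-like nuclei over other nuclei was 2.46 in PDGFB-NLS and 3.66 in Control. The part of reads from other nuclei in the Fgfr2, Erbb3, Fgfr1 and Met ratios was not tested. Igf1r lay between -0.26 and 0.33 in the 5 classes compared with Control.

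**Figure D5:**
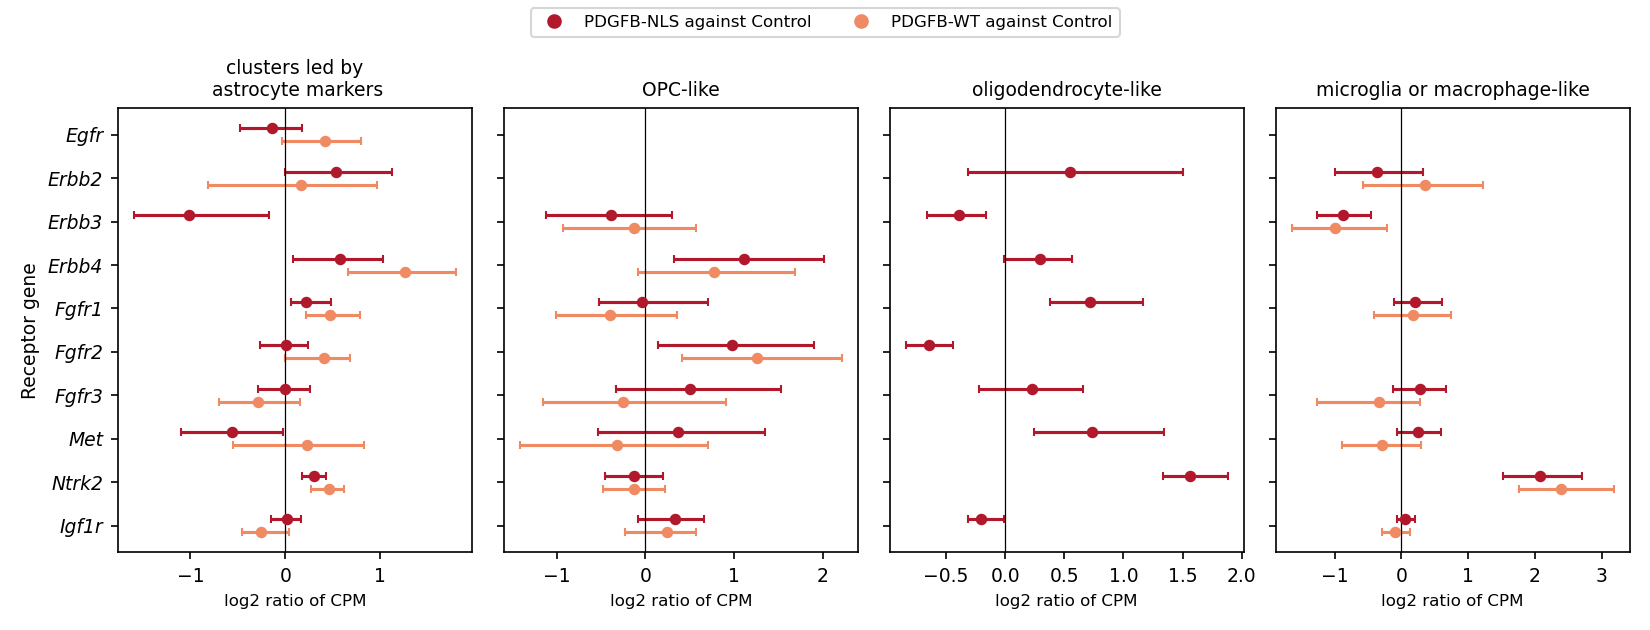
Log2 ratio of CPM with exact 95% counting intervals for each receptor in 4 classes of nuclei, PDGFB-NLS and PDGFB-WT each against Control; genes with under 20 counts in a library are left out. Ntrk2 is near 0 in OPC-like nuclei and far to the right in oligodendrocyte-like and microglia or macrophage-like nuclei, where its Control level was 48.5 and 6.77 CPM.

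Of the genes around these receptors in the pathway, most measured ends were within 1.5-fold. None of the measured ligand ends was past 1.5-fold, among 7 of 23 measured in PDGFB-NLS against Control and 5 in each of the other comparisons. The ligand with the highest ratio was Nrg2, a neuregulin, at 0.39 in PDGFB-NLS against Control and 0.51 in PDGFB-WT against Control, and the lowest in PDGFB-NLS was Fgf18, at -0.56. Among adaptors and inhibitors 1 of 20 was higher in PDGFB-NLS against Control and 1 of 19 in PDGFB-WT against Control. These counts are near the shares of all genes, 4.26% and 5.87%. In both cases the gene was Shc3, an adaptor of neurotrophin receptors in neurons. Shc3 had 39.6 CPM in PDGFB-NLS, 50.7 in PDGFB-WT and 23.9 in Control. Of 27 measured RAS-ERK and PI3K genes none was past 1.5-fold in PDGFB-NLS against Control. Tsc1, a brake on mTOR signalling, was past 1.5-fold lower in PDGFB-WT against Control (-0.59), the only one of the 27, where 1.73% of genes were. It was higher in PDGFB-NLS against PDGFB-WT (0.60), where 1.35% of genes were. Its levels were 78.0 CPM in PDGFB-NLS, 47.4 in PDGFB-WT and 79.2 in Control. These values are for ends. At the other peaks 4 of 10 measured ligands were past 1.5-fold higher in PDGFB-WT against Control, where 17.9% of genes were. In PDGFB-NLS against PDGFB-WT 4 of 10 were lower, where 8.83% of genes were. In PDGFB-NLS against Control 1 of 15 was higher and 1 lower, where 6.73% and 2.64% of genes were.

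Other receptor tyrosine kinases held more of the differences at ends. In PDGFB-NLS against Control 6 of 19 measured were past 1.5-fold higher and none lower, and in PDGFB-WT against Control 3 of 13 were higher and none lower, beside the shares of 4.26% and 5.87% given above. Kit, the stem cell factor receptor, had 19.9 CPM in PDGFB-NLS, 21.3 in PDGFB-WT and 9.04 in Control. Epha5, an ephrin receptor, had 18.7, 27.3 and 11.1 CPM, and PDGFB-NLS against PDGFB-WT was -0.66 (-1.04 to -0.33). The others past 1.5-fold higher in PDGFB-NLS against Control were Alk (0.68), Ror2 (0.65), Ephb2 (0.60) and Ptk7 (0.59), and in PDGFB-WT against Control Ror2 (0.78). At the other peaks 7 of 19 were higher and none lower in PDGFB-WT against Control (17.9% and 6.54% of genes). In PDGFB-NLS against Control 5 of 21 were higher and 1 lower (6.73% and 2.64% of genes). In PDGFB-NLS against PDGFB-WT 7 of 19 were lower and none higher (8.83% and 3.22% of genes).

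By the pattern of log2(CPM + 1) over the 22 clusters of the 3 libraries, centred in each library, some genes elsewhere in the genome ran close to a receptor. Among 13922 genes the most alike to Ntrk2 were Fam124a (Pearson r 0.98), Dok5 (0.98) and Igsf21 (0.98), and to Erbb4 Grik2 (0.99), Tmem132b (0.98) and Tafa5 (0.97). Fgfr3 was most like Mras (0.96), Egfr most like Slc14a2 (0.92), Fgfr2 most like Cdh11 (0.94) and Fgfr1 most like Rab34 (0.91). Erbb2 was most like Gpbp1l1 (0.94), Igf1r like Tjp1 (0.89), Met like Pstpip1 (0.87) and Erbb3 like Actn4 (0.85). The peaks counted here lay over the gene body and 2 kb on either side, with ends of other genes included. The profiles of Erbb2 and Erbb3 thus take in the ends shared with Mien1 and Pa2g4, which the levels by class leave out. Among the receptors themselves the most alike pairs were Erbb4 with Fgfr2 (0.88), Erbb4 with Ntrk2 (0.86) and Fgfr1 with Fgfr3 (0.81). Clusters of a library share its depth and preparation, so these values are descriptions.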

How the data were processed

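Single-nucleus ATAC-seq libraries (10x Chromium Single Cell ATAC v2, per the labels' protocols) were deposited by the authors as raw counts of cut sites per peak and barcode. Per the file headers the software was cellranger-atac 2.1.0, while Cell Ranger 8 and mm10 stand in the submitters' processing notes. How peaks were called is not stated there. Barcodes under 200 counts were dropped. Where peaks of different libraries overlapped, their union was 1 region. For intervals, counts were converted to fragments, since most entries were 2, both cut sites of 1 fragment. Ratios needed 100 counts in the lower library (20 within classes). Intervals are Clopper-Pearson or Poisson at 95%; no test between conditions was possible. Ratios were tested on simulated counts. A region within 1000 bp of either end of a RefSeq gene was a gene end.

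Clustering used peaks open in at least 1% of barcodes, components 2 to 30, 15 neighbours and Leiden resolution 0.6 (leidenalg 0.10.2, Python 3.11.15). A name needed a median marker log2 fold of 1.0, and 0.5 above the second list, limits set after seeing the data. No doublet caller was run. Members and lists were chosen with earlier results of these data known. Named genes were the members, the 2 highest and 2 lowest end ratios of each pathway list per comparison, and the 3 genes most like each member; the other receptor kinases named beyond that rule were chosen after their values were seen. Results were recomputed with other peak sets, scalings, minimum counts, windows and barcode filters.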

Additional observations from a re-analysis of the deposited data

Results flagged for a closer look

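Regions called in a single library lie outside the comparisons, and 2 at these loci held at least 10 CPM. A region of Fgfr2 called in PDGFB-WT alone (chr7:130264461-130265374, inside the gene and about 1.9 kb from its start) had 20.45 CPM, from 138 counts in 70 barcodes. Cluster 3 of PDGFB-WT gave 63.8% of these counts, from 41 barcodes, and OPC-like nuclei gave 13.8%. A region of Igf1r called in PDGFB-NLS alone (chr7:67950870-67951270) had 29.59 CPM, from 727 counts; it adjoins the start-site region called in all 3 libraries. What counts the other libraries have in these regions is not known from their peak lists. With 1 library per group, no group could be searched for a library far from the others.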

How the results depend on the processing

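No paired analysis was possible because each group has 1 library, so no replicate block could be fitted and no replicate could be left out. Ntrk2 stayed past 1.5-fold higher against Control in PDGFB-NLS and in PDGFB-WT under every alternative that gave it a value, at its start and at its other peaks; the lowest ratios were 0.64 and 0.70 at the start and 0.80 and 1.11 at the other peaks. Egfr at the other peaks stayed past 1.5-fold in PDGFB-WT against Control (1.17 to 1.58) and in PDGFB-NLS against PDGFB-WT (-1.19 to -1.01). The count of member ends past 1.5-fold in PDGFB-WT against Control, 1, became 2 with barcodes of at least 1000 counts, with no minimum on counts or per kb of peak length, and 0 at a minimum of 300 counts. In PDGFB-NLS against Control the count of ends, 3, became 1 with peaks read as open or not, at a minimum of 300 counts or without the 5% deepest barcodes. In PDGFB-NLS against PDGFB-WT it was 0 and became 1 with no minimum on counts. At the other peaks the count in PDGFB-NLS against Control, 2, became 1 over regions called in PDGFB-NLS and Control, where Erbb4 was at 0.42. In PDGFB-NLS against PDGFB-WT the count, 1, became 3 with each library's own peaks, 0 at a minimum of 300 counts and 2 with a flank of 2 kb. The causes were not tested, except that a higher minimum leaves fewer genes. Of 81 recomputed counts of members in all, 69 stayed within 1.5 times. Joining peaks across gaps of 200 bp and leaving out ends of other genes were added after seeing the data. PDGFB-WT was the shallowest library, with a median of 821 counts per barcode.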
